A study of Mus musculus with 10 samples.

Results

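The genes described here are 10 that endothelial cells of all vessel types share: Pecam1, Cdh5, Tie1, Tek, Erg, Esam, Egfl7, Robo4, Ramp2 and Mmrn2. They were taken by name as genes of endothelium in general, as a measure of the share of endothelial RNA in each library. Earlier results of these data were known when the list was chosen. All 10 were found among the 55385 gene rows of the files, and all 10 were among the 12872 genes with enough counts to be tested.

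Total RNA of frozen, homogenised mouse liver was sequenced on the BGISeq-500 platform in 10 libraries. The 5 control libraries carry the genotype label Ctrl, and the other 5 carry the genotype label KO and the group name Alk1-HEC-KO. ALK1 is the protein of Acvrl1, a receptor of endothelial cells for ligands of the BMP family. The labels do not spell out HEC, give no treatment, strain, sex or age, and name neither the driver nor the cells of the knockout. They do not state whether each library is a different animal, and p-values here therefore speak to the spread among the libraries, which may be technical.

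Depth was even, at 20.91 to 21.56 M (mega) estimated counts per library. Levels are given in TPM, an abundance corrected for transcript length, so that genes can be compared with each other. Acvrl1 itself was not lower under the KO label, and in TPM each KO library lay above each control (log2 fold change 0.99). It was not called by the edgeR test described below (adjusted p = 0.34). It was at 1.05, 0.296, 0.391, 0.661 and 0.951 TPM in control libraries 1 to 5, and at 1.15, 1.39, 1.22, 1.92 and 1.12 TPM in the KO libraries 1 to 5. Those libraries are therefore called labelled knockout throughout, and every direction rests on the label. Loss of part of the gene might not be seen in such whole-gene values, and this was not tested. The deposited file names fall into 3 runs of consecutive numbers, whose meaning the labels leave unstated. The first run holds control libraries 1 and 2 and labelled knockout library 1. The second holds control libraries 3 to 5 and labelled knockout library 3. Labelled knockout libraries 2, 4 and 5 form the third run, so there the run and the group cannot be told apart. Saa1, an acute phase gene of hepatocytes, was at 6586 TPM in control library 4, 6733 in labelled knockout library 4 and 13331 in labelled knockout library 5, and at most 874 TPM in the others.

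Endothelial cells line all blood vessels. In the liver most of them form the sinusoids, whose lining is perforated and lacks a continuous basement membrane, while larger vessels carry a continuous endothelium. The 10 genes cover the main tasks that the vessel types have in common. Pecam1, Cdh5 and Esam encode proteins that join neighbouring endothelial cells, Tie1, Tek, Robo4 and Ramp2 encode receptors or receptor parts at the surface, Egfl7 and Mmrn2 encode secreted proteins of the vessel wall, and Erg encodes an ETS family transcription factor that maintains endothelial identity. ETS factors bind DNA around the core GGAA. In bulk tissue, fewer cells of a type and less RNA per cell cannot be told apart.

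Since ETS binding is the feature that endothelial promoters are best known for, the promoters that hold the longer ERG-type letters AGGAAG are shown. The RefSeq promoter table (GRCm38.p6, from 250 bases before to 50 bases after a start) held 9 promoters of 5 of the 10 genes, Egfl7, Tie1, Erg, Robo4 and Tek. Both strands were searched, and AGGAAG contains the core GGAA. The longer letters were found in 5 of the 9 promoters, from 4 of the 5 genes, and in 35.4% of the 32851 promoters of the table. One promoter for each of those 4 genes follows, the one with the most matches, on the strand of the gene, with AGGAAG or its complement on the other strand in capitals.
Egfl7, chr2:26580833-26581132, plus strand, 3 matches: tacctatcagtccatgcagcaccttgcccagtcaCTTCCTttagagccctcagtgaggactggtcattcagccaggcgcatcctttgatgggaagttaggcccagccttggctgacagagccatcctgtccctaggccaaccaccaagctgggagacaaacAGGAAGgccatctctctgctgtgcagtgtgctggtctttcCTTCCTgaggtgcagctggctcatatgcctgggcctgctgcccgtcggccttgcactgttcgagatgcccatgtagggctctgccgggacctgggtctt
Tie1, chr4:118489800-118490099, minus strand, 2 matches: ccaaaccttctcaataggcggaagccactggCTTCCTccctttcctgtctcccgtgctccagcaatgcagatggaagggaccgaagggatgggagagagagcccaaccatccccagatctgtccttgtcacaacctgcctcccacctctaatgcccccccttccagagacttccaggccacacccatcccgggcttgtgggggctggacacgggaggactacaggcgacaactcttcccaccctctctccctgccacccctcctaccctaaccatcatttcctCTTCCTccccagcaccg
Erg, chr16:95459299-95459598, minus strand, 1 match: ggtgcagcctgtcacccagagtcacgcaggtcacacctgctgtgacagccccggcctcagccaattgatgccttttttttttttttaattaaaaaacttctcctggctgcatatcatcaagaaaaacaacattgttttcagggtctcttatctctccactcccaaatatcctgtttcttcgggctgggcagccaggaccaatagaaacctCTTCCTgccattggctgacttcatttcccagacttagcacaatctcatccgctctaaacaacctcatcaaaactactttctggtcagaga
Robo4, chr9:37401722-37402021, plus strand, 1 match: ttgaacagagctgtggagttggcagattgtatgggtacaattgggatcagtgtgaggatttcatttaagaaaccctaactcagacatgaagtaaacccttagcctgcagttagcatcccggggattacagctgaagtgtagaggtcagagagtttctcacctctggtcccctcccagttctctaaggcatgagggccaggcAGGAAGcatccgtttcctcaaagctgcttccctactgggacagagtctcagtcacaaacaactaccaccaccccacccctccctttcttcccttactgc
The shorter core GGAA stood in all 9 promoters but also in 96.0% of all promoters, with a median of 3 matches per promoter over the table. The Tie1 promoter held 9 of them, the Egfl7 promoter 5, the Robo4 promoter 4 and the Erg promoter 2. The GATA letters AGATAA stood in 2 promoters, the Erg promoter shown and that of Tek (chr4:94739039-94739338), against 11.2% of all promoters. The Tek promoter held no AGGAAG. A match describes the letters only and is no measured binding site.

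Taken as a group, the 10 genes had higher mean levels in the labelled knockout libraries, by 1.2-fold (Tek) to 2.16-fold (Pecam1) in mean TPM, but none passed the test over all genes. The test was the quasi-likelihood test of edgeR with Benjamini-Hochberg adjustment, in which a gene is called at an adjusted p under 0.05. It called 46 of all tested genes, or 0.357%, and 0 of the 10, whose adjusted p-values ran from 0.15 to 0.86. All 10 pointed higher, under scaling by library totals alone too. Their median log2 fold change was 0.82, against 0.00 over all tested genes, of which 50.4% pointed higher. For 8 of the 10 the fold change lay above the 95th percentile of all tested genes, 0.71. At an unadjusted p under 0.05, 9 of the 10 were higher, all but Tek, against 5.03% of all tested genes higher at that p. As the levels of the 10 moved together over the libraries, these counts do not stand for 10 independent genes. The TPM of the groups overlapped for each of the 10, while 1.31% of all tested genes were higher in labelled knockout libraries without overlap. With DESeq2, 3 of the 10 were called higher (Pecam1 at an adjusted p of 0.033, Tie1 and Robo4 at 0.013 each) and 0.637% of all genes were. With edgeR and no filter on low counts, 2 were called higher (Tie1 at 0.012 and Robo4 at 0.021), against 0.247% of 27507 genes. Of the 23 alternatives run, 21 called none of the 10.

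**Figure D1:**
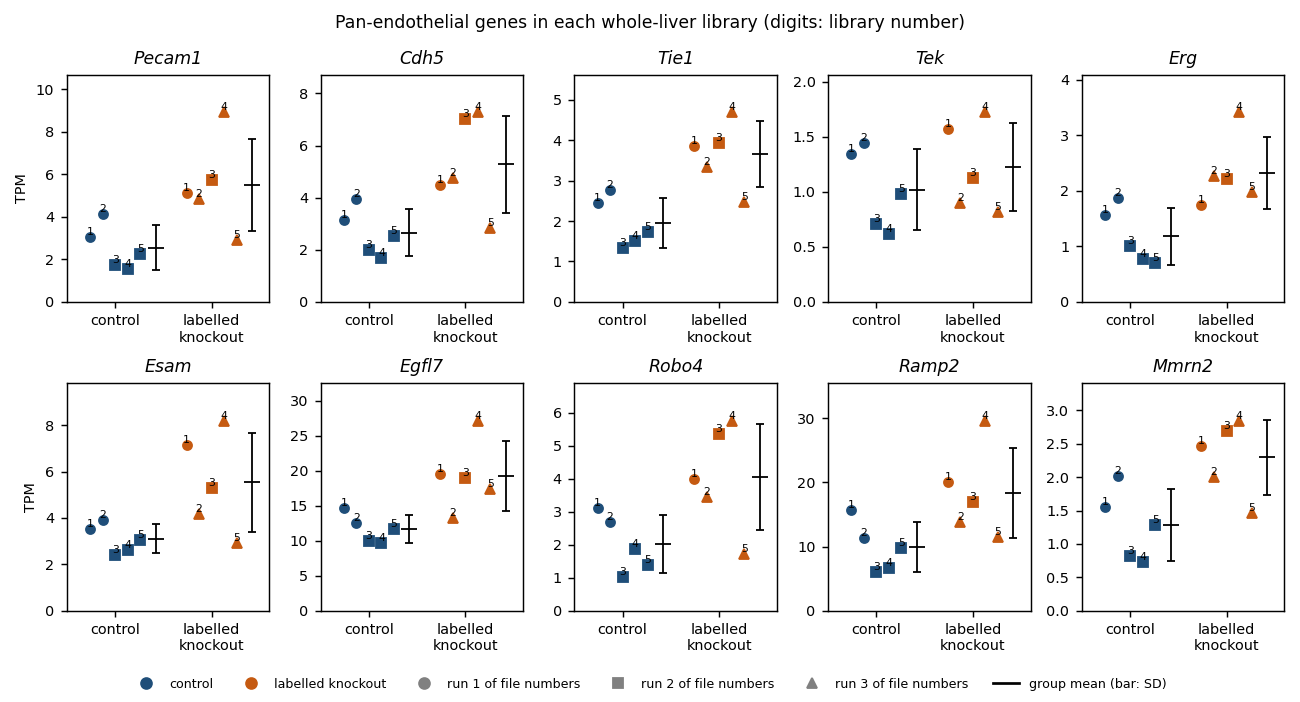
TPM of each of the 10 genes (vertical axes, linear, from 0) in the 5 control (blue) and 5 labelled knockout (orange) libraries, with the library number at each point, the run of file numbers as marker shape, and the group mean with its SD (n = 5) as a black bar. Labelled knockout library 4 is highest in all 10 panels, the groups overlap in each, and control libraries 1 and 2 lie above control libraries 3 to 5 in mean.

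Pecam1 (ENSMUSG00000020717.19, GRCm38 chromosome 11, 106654217 to 106750628, minus strand) encodes CD31, an adhesion protein of endothelial junctions that leukocytes and platelets also carry. Its level was 3.03, 4.15, 1.74, 1.56 and 2.25 TPM in control libraries 1 to 5, and 5.12, 4.84, 5.72, 8.90 and 2.89 TPM in the labelled knockout libraries 1 to 5. Every labelled knockout library except library 5 lay above all controls. The means were 2.54 ± 1.06 and 5.49 ± 2.18 TPM (SD, n = 5 each), with a log2 fold change of 1.02 (standard error 0.28, edgeR adjusted p = 0.26).

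Cdh5 (ENSMUSG00000031871.9, chromosome 8, 104101625 to 104144511, plus strand) encodes VE-cadherin, the cadherin of endothelial adherens junctions. Control libraries held 3.13, 3.94, 1.99, 1.70 and 2.53 TPM, and labelled knockout libraries 4.49, 4.77, 7.0, 7.27 and 2.85 TPM. Again only labelled knockout library 5 fell among the controls, below libraries 1 and 2 of that group. The means of 2.66 ± 0.904 and 5.27 ± 1.85 TPM (SD, n = 5 each) corresponded to a log2 fold change of 0.84 (standard error 0.24, adjusted p = 0.28). A predicted antisense gene that overlaps Cdh5 had 0 counts.

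Esam (ENSMUSG00000001946.14, chromosome 9, 37528078 to 37538319, plus strand) encodes an immunoglobulin-like adhesion protein of endothelial tight junctions, found on platelets as well. The controls were at 3.53, 3.93, 2.38, 2.62 and 3.06 TPM, and the labelled knockout libraries at 7.17, 4.18, 5.28, 8.18 and 2.93 TPM. Labelled knockout library 2 exceeded the highest control by little, and library 5 was below 3 of the 5 controls. Between means of 3.11 ± 0.638 and 5.55 ± 2.14 TPM (SD, n = 5 each), the log2 fold change was 0.75 (standard error 0.25, adjusted p = 0.36). The 3 junction genes thus shared 1 pattern over the libraries, with labelled knockout library 4 highest and library 5 at the level of the controls.

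Tie1 and Tek encode the 2 receptors of the angiopoietin pathway. TEK, also called TIE2, binds the angiopoietins, and TIE1 is its partner without a high-affinity angiopoietin of its own. Tie1 (ENSMUSG00000033191.14, chromosome 4, 118471191 to 118490061, minus strand) was at 2.45, 2.76, 1.33, 1.5 and 1.73 TPM in controls and at 3.85, 3.33, 3.93, 4.69 and 2.47 TPM in the labelled knockout libraries. The overlap was limited to labelled knockout library 5 and control library 2, and in log2 CPM (counts scaled by library size) the groups did not overlap. Tie1 was the only one of the 10 of which that held, against 0.948% of all tested genes higher without overlap on that scale. From 1.95 ± 0.624 to 3.65 ± 0.822 TPM (SD, n = 5 each), its log2 fold change was 0.84 (standard error 0.20, adjusted p = 0.15), the smallest adjusted p of the 10.

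Tek (ENSMUSG00000006386.15, chromosome 4, 94739289 to 94874976, plus strand) was the lowest of the 10 genes and differed least. The controls held 1.34, 1.44, 0.71, 0.62 and 0.98 TPM, and labelled knockout libraries 1.57, 0.90, 1.12, 1.72 and 0.82 TPM. The groups overlapped broadly, since 3 of the 5 labelled knockout libraries lay below control libraries 1 and 2. The means were 1.02 ± 0.366 and 1.23 ± 0.401 TPM (SD, n = 5 each). Its log2 fold change of 0.23 had a 95% interval from -0.37 to 0.82 (standard error 0.28, adjusted p = 0.86), which holds both no difference and the median of the 10 genes. Without the 3 libraries with Saa1 above 1000 TPM, a choice made after seeing the data, it was -0.04.

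The ratio of Tek to Tie1 separated the groups, although neither gene did in TPM. It was 0.545, 0.522, 0.537, 0.415 and 0.569 in controls and 0.409, 0.271, 0.286, 0.367 and 0.334 in labelled knockout libraries. Each labelled knockout library was below each control, by a small margin between labelled knockout library 1 and control library 4, and the order held within the first and the second run. On the log2 scale the mean ratio was -0.96 in controls and -1.60 in labelled knockout libraries, a difference of -0.64. The pair was chosen with its values in view, so the ratio is a description and was not tested. As a share of the summed TPM of the 10 genes, Tek made up 2.24 to 3.09% in controls and 1.62 to 2.25% in labelled knockout libraries, which overlapped by 1 library of each group.

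Robo4 (ENSMUSG00000032125.20, chromosome 9, 37401897 to 37415115, plus strand) encodes an endothelial receptor of the Roundabout family that stabilises vessels and acts with the receptor UNC5B. Controls held 3.10, 2.69, 1.03, 1.88 and 1.37 TPM, and labelled knockout libraries 3.99, 3.45, 5.34, 5.74 and 1.70 TPM. Labelled knockout library 5 was below 3 controls, and the other 4 were above all controls. The means were 2.01 ± 0.871 and 4.05 ± 1.61 TPM (SD, n = 5 each), and the log2 fold change of 1.10 (standard error 0.27, adjusted p = 0.17) was the highest of the 10.

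Ramp2 (ENSMUSG00000001240.13, chromosome 11, 101246028 to 101259546, plus strand) encodes the accessory protein that turns the receptor CALCRL into an adrenomedullin receptor. It was at 15.73, 11.37, 6.03, 6.72 and 9.81 TPM in controls and 20.04, 13.84, 16.89, 29.57 and 11.47 TPM in the labelled knockout libraries. The highest control, library 1, lay above labelled knockout libraries 2 and 5. With means of 9.93 ± 3.91 and 18.4 ± 7.05 TPM (SD, n = 5 each), the log2 fold change was 0.80 (standard error 0.28, adjusted p = 0.40). Ramp2 overlaps Vps25 on the same strand, a gene with 15901 counts over the 10 libraries. They share 1103 of the 3301 exon bases of Ramp2 (33.4%), so the split of reads from that stretch is uncertain.

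Egfl7 (ENSMUSG00000026921.19, chromosome 2, 26580014 to 26593120, plus strand) encodes a secreted protein of the endothelial matrix and is the host gene of miR-126. It was the most abundant of the 10, at 14.63, 12.55, 9.97, 9.64 and 11.61 TPM in controls and 19.53, 13.21, 18.90, 27.08 and 17.45 TPM in the labelled knockout libraries. Here labelled knockout library 2, not library 5, fell among the controls. The means were 11.7 ± 2.03 and 19.2 ± 5.03 TPM (SD, n = 5 each), with a log2 fold change of 0.64 (standard error 0.22, adjusted p = 0.39). Agpat2 overlaps Egfl7 on the opposite strand and had 35291 counts in all, but shares 64 of the 3581 exon bases of Egfl7 (1.79%). Whether the counting used the strand is not given in the sources used here, so reads from that stretch are uncertain. The miRNA gene Mir126a had 0 counts, in libraries that were not made for small RNA.

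Mmrn2 (ENSMUSG00000041445.9, chromosome 14, 34375465 to 34404287, plus strand) encodes multimerin-2, an endothelial matrix protein that binds the surface receptors CD93 and CLEC14A. Its controls were at 1.56, 2.02, 0.82, 0.73 and 1.28 TPM, and its labelled knockout libraries at 2.47, 2.01, 2.70, 2.84 and 1.46 TPM. Labelled knockout libraries 2 and 5 lay below control library 2. The means of 1.28 ± 0.533 and 2.29 ± 0.564 TPM (SD, n = 5 each) gave a log2 fold change of 0.76 (standard error 0.25, adjusted p = 0.36).

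Erg (ENSMUSG00000040732.20, chromosome 16, 95359169 to 95586593, minus strand), the transcription factor of the group, was at 1.56, 1.87, 1.0, 0.77 and 0.70 TPM in controls and 1.74, 2.27, 2.22, 3.41 and 1.97 TPM in the labelled knockout libraries. For Erg it was labelled knockout library 1 that fell among the controls. Its means were 1.18 ± 0.514 and 2.32 ± 0.645 TPM (SD, n = 5 each), with a log2 fold change of 0.84 (standard error 0.31, adjusted p = 0.47). Erg also had the lowest count of the 10 in a library, 34 in control library 5, whereas the highest was 564 for Cdh5 in labelled knockout library 4. With the run as a covariate its log2 fold change was 0.42.

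The order of the levels was nearly the same in both groups. In controls it ran Egfl7, Ramp2, Esam, Cdh5, Pecam1, Robo4, Tie1, Mmrn2, Erg and Tek, from 11.7 down to 1.02 TPM. In labelled knockout libraries Pecam1 stood before Cdh5 and Erg before Mmrn2, from 19.2 down to 1.23 TPM. Neighbours in the order overlapped over the libraries of a group in every case but 1, the step from Ramp2 to Esam, in both groups.

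**Figure D2:**
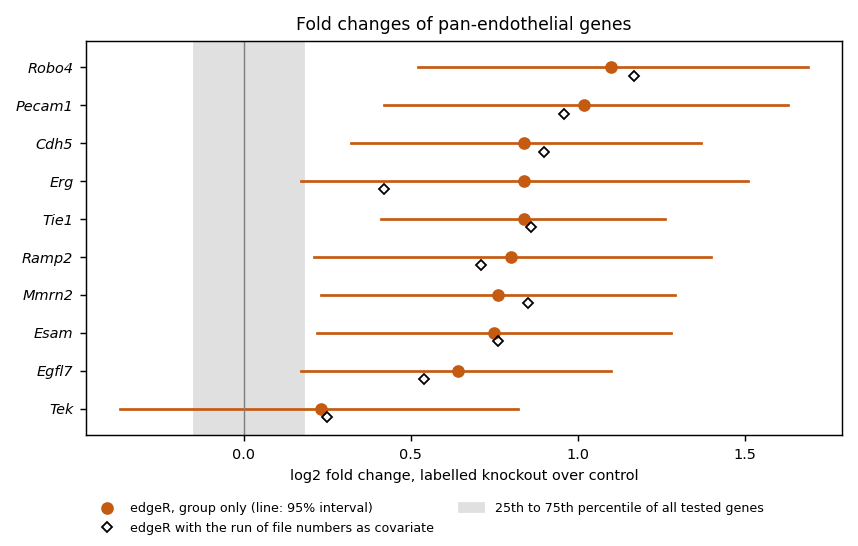
Log2 fold change (horizontal axis) of each gene in labelled knockout over control libraries, with its 95% interval from edgeR (orange), the value with the run of file numbers as a covariate (open diamonds), and the range between the 25th and 75th percentiles of all tested genes (grey, from -0.15 to 0.18). The interval lies above 0 for 9 genes and includes 0 for Tek.

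Between libraries of the same group the levels of the 10 genes moved together. In the controls they differed by run, while in the labelled knockout group the third run held both the highest and the lowest sum. Labelled knockout library 4 was the highest library for all 10 genes. The lowest was control library 4 for 5 genes, control library 3 for 4 and control library 5 for 1, all of the second run. The mean of the control libraries of the first run was above that of the second run for all 10 genes, by 1.31-fold to 2.09-fold. Within the first run, labelled knockout library 1 was above both controls for 9 of the 10 genes, all but Erg, and its ratio to their mean ran from 1.01 for Erg to 1.92 for Esam. Within the second run, labelled knockout library 3 was above all 3 controls for all 10 genes, at 1.45 (Tek) to 3.74 (Robo4) times their mean. Each run offers 1 labelled knockout library for this, so no test within a run was made. With the run as a covariate, the third run has no weight in the comparison. All 10 log2 fold changes then still pointed higher, from 0.25 (Tek) to 1.17 (Robo4). An unadjusted edgeR p under 0.05 was left for 7 of the 10, against 9 without the covariate. The number of genes called over all genes dropped to 5, none of them among the 10.

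Summed over the 10 genes, the level was 50.1, 46.7, 27.0, 27.7 and 35.3 TPM in control libraries and 70.0, 52.8, 69.1, 99.4 and 46.0 TPM in the labelled knockout libraries. Only labelled knockout library 5 was below a control, below libraries 1 and 2 of that group. The means were 37.4 ± 10.7 and 67.5 ± 20.6 TPM (SD, n = 5 each), a ratio of 1.81. These sums are 0.0027 to 0.00501% of all transcripts in controls and 0.0046 to 0.00994% in labelled knockout libraries. Egfl7 and Ramp2 held more than any other gene of the sum, and without them the sums ran from 11 to 22.8 TPM in controls and from 17.1 to 42.7 TPM in the labelled knockout libraries, a ratio of 1.89. Acvrl1 amounted to 2.09, 0.633, 1.45, 2.38 and 2.69% of the sum in controls and 1.65, 2.64, 1.76, 1.93 and 2.43% in labelled knockout libraries. Relative to the 10 genes its level therefore overlapped between the groups, with means of 1.85 ± 0.819% and 2.08 ± 0.432% (SD, n = 5 each).

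Genes typical of the sinusoidal lining had a median difference near 0. Of 17 listed genes, 16 were annotated and tested and 0 were called, 9 pointed higher and 7 lower (14 and 2 under scaling by library totals alone), and the median log2 fold change was 0.05. Clec4g, a lectin and the most abundant of them, was at 25 ± 8.68 TPM in controls and 25.6 ± 8.26 TPM in the labelled knockout libraries (SD, n = 5 each, log2 fold change -0.02). The summed sinusoidal level was 64.3 to 137 TPM in controls and 74.1 to 141 TPM in the labelled knockout libraries. Divided by the sum of the 10 genes in the same library, it was 2.63, 2.93, 2.90, 2.32 and 2.52 in controls and 1.94, 1.40, 1.48, 1.42 and 1.63 in labelled knockout libraries. Every labelled knockout library was thus below every control, in each run that holds both groups, with means of 2.66 ± 0.258 and 1.57 ± 0.224 (SD, n = 5 each). Relative to its mean, the ratio varied less within a group than the sum of the 10 genes did. No test was made on it, since it is a score over chosen genes.

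**Figure D3:**
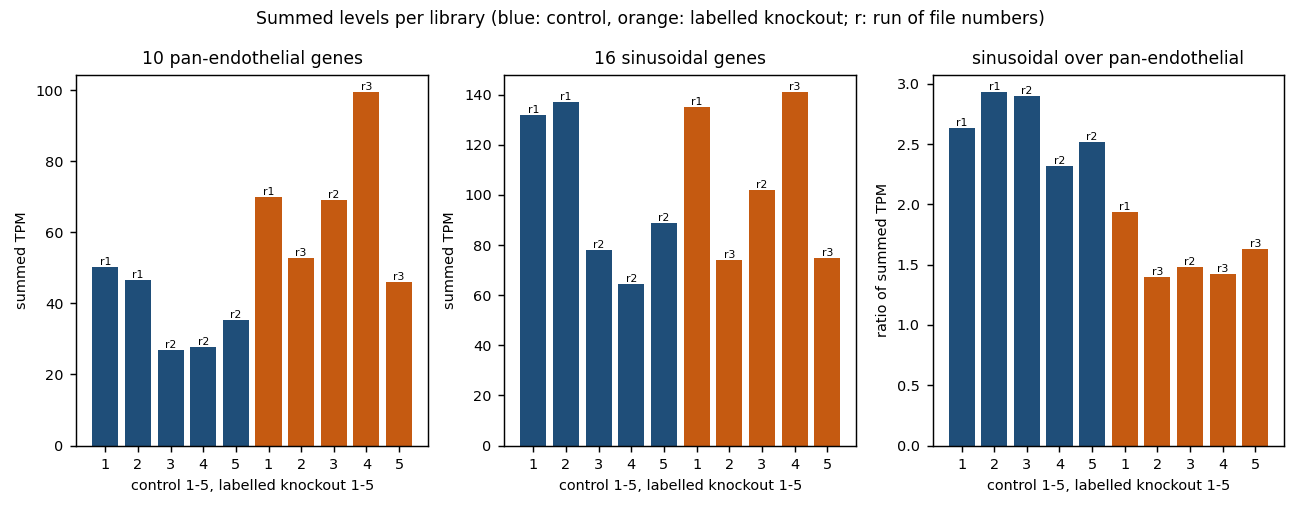
Summed TPM of the 10 genes (left), summed TPM of the 16 sinusoidal genes (middle) and the second divided by the first (right) in each library, blue for control and orange for labelled knockout, with the run of file numbers above each bar. The sums overlap between the groups, whereas the ratio is 2.32 to 2.93 in controls and 1.40 to 1.94 in labelled knockout libraries.

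Other genes expressed broadly in endothelium had a median close to that of the 10. Of 20 such genes, all tested, 0 were called, 19 pointed higher and 1 lower (S1pr1, log2 fold change -0.11, named after its value was seen), with a median of 0.84. The same 19 and 1 were counted under scaling by library totals alone. The most abundant was Eng, the BMP co-receptor endoglin, at 12.9 ± 2.70 and 14.7 ± 4.47 TPM (SD, n = 5 each, log2 fold change 0.10). S1pr1 and Eng weigh most in their sum, which ran from 32.4 to 55.1 TPM in controls and from 37.7 to 86.9 TPM in the labelled knockout libraries, a ratio of 1.38. Divided by the sum of the 10 genes, their sum was 0.978 to 1.36 in controls and 0.782 to 0.99 in labelled knockout libraries. The means were 1.17 ± 0.139 and 0.864 ± 0.0788 (SD, n = 5 each). A lower mean ratio to the 10 was thus not particular to the sinusoidal genes.

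Genes typical of continuous endothelium held most of the called endothelial genes named here. Of 13 listed genes 12 were tested, and 5 of them were called higher in labelled knockout libraries, against 0.186% of all tested genes. The median log2 fold change over the 12 was 1.40. This list was chosen with earlier results of these data known, so the values describe it and are no test of it. Of the 12, 11 pointed higher and 1 lower, under scaling by library totals alone as well. The lower one was Vwf, the gene of von Willebrand factor (1.56 ± 0.445 against 0.987 ± 0.535 TPM, SD, n = 5 each, log2 fold change -1.16, adjusted p = 0.38), and Plvap, the protein of endothelial diaphragms, was at 0.14. Both were named after their values were seen. Ly6c1, a surface protein of capillaries, rose by 5.07 in log2 fold change (standard error 0.40, adjusted p = 2.7e-05). Emcn, the sialomucin endomucin, rose by 2.02 (0.28, adjusted p = 0.0045), Cd34, a sialomucin of vascular and progenitor cells, by 2.80 (0.44, adjusted p = 0.012) and Cldn5, the tight junction claudin of endothelium, by 1.40 (0.23, adjusted p = 0.012). The fifth was Cav1, the caveolin of endothelial caveolae, named here as the remaining called gene. Aqp1, a water channel and the most abundant of the list over the 10 libraries, did not pass (log2 fold change 0.49, adjusted p = 0.55). The summed level was 52.1 to 83.6 TPM in controls and 112 to 209 TPM in the labelled knockout libraries without overlap. Divided by the sum of the 10 genes it was 1.58 to 2.17 and 1.80 to 2.50, which overlapped.

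Partners of the 10 genes in their pathways had smaller median differences. Of 38 listed ligands, co-receptors, junction plaque proteins, binding partners and related ETS factors, 27 were tested. Of these, 1 was called higher and 0 lower, against 0.186% of all tested genes called higher and 0.357% called in either direction. Of the 27, 18 pointed higher and 9 lower, and the median of their log2 fold changes was 0.20. The one called was Cd93, the gene of a receptor for multimerin-2, from 0.257 ± 0.0948 to 1.05 ± 0.57 TPM (SD, n = 5 each, log2 fold change 1.96, standard error 0.34, adjusted p = 0.02). Its TPM did not overlap between the groups, at 0.154 to 0.395 against 0.465 to 1.93. Clec14a, the gene of the other receptor named above, was not called. It was at 1.30 ± 0.366 and 1.62 ± 0.681 TPM (SD, n = 5 each, log2 fold change 0.26, adjusted p = 0.84). Among the 4 tested genes of the multimerin list, Emilin1, a matrix protein of the same family, was the most abundant, with a log2 fold change of 0.41 (adjusted p = 0.61).

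In the angiopoietin pathway 2 of 5 listed genes were tested. Ptprb, the phosphatase that acts on TEK and VE-cadherin, was at 2.15 ± 0.815 and 2.26 ± 0.691 TPM (SD, n = 5 each, log2 fold change -0.05, adjusted p = 0.97). Its difference was small, as was that of Tek. All 6 genes of the catenin and plaque list were tested and 0 were called, 2 pointing higher and 4 lower (6 and 0 by library totals alone). Ctnnb1, beta-catenin, which links VE-cadherin to actin and is made by hepatocytes too, was at 62.9 ± 9.83 and 61.6 ± 13.7 TPM (SD, n = 5 each, log2 fold change -0.07). The adrenomedullin list had 4 tested genes, all pointing higher without a call, at a median log2 fold change of 0.42. Calcrl, the receptor that RAMP2 completes and the most abundant of them, had a log2 fold change of 0.16 (1.52 ± 0.443 against 1.62 ± 0.497 TPM, SD, n = 5 each). Among 3 tested genes of the Slit, Robo and UNC5 list all pointed higher without a call. Their median was 0.57, with Robo1, the most abundant, at 0.04. Unc5b, the highest of the 3, was at 0.81 (adjusted p = 0.4) and is named outside the rule given below. The ETS list had 5 tested genes, 4 pointing higher and 1 lower without a call, with a median of 0.36 and Ets2, the most abundant, at 0.20. The last list, of partners of PECAM1, EGFL7 and ESAM, had 3 tested genes, 1 pointing higher and 2 lower, with the phosphatase gene Ptpn11 at -0.15.

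**Figure D4:**
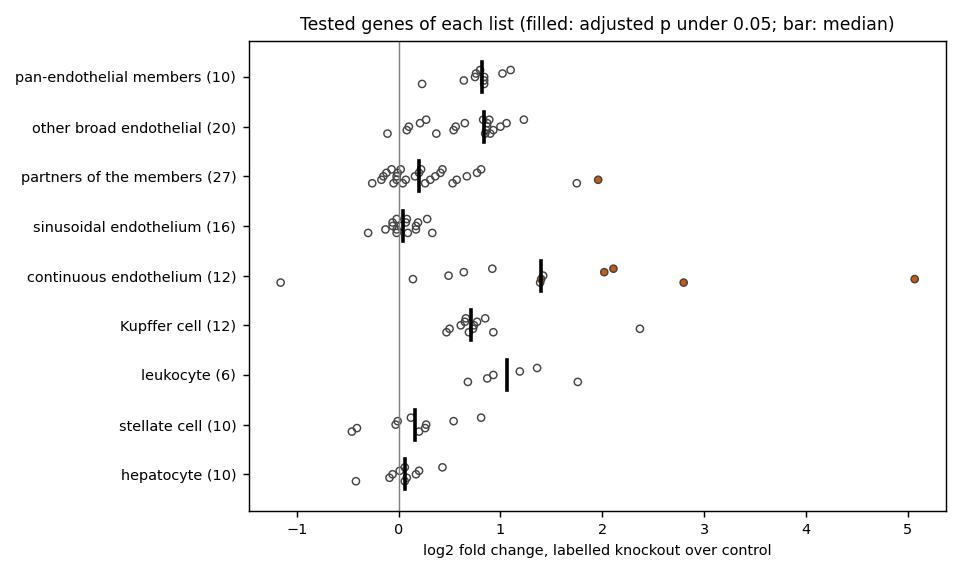
Log2 fold change (horizontal axis, labelled knockout over control) of every tested gene in 9 lists, 1 circle per gene, filled where the adjusted p was under 0.05, with a bar at each median and the number of tested genes in brackets. The medians are 0.82 for the 10 genes, 0.84 for other broad endothelial genes, 0.20 for partners, 0.05 for sinusoidal and 1.40 for continuous endothelium.

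Genes of immune cells, some of which also carry Pecam1, pointed higher with the 10. The Kupffer cell genes, of the liver's resident macrophages, all pointed higher (12 of 12 tested, 0 called, median log2 fold change 0.71), and their summed level was 141 to 222 TPM in controls and 225 to 433 TPM in the labelled knockout libraries, without overlap. C1qa, a complement component and the most abundant, was at 40.2 ± 7.06 and 65.3 ± 25.2 TPM (SD, n = 5 each). Of 12 listed leukocyte genes 6 were tested, all 6 pointing higher with 0 called and a median of 1.06, and the sums of 12.5 to 19.6 and 21.9 to 50.4 TPM did not overlap. Cd52, a surface protein of lymphocytes, held most of that sum, at 11.7 ± 1.62 and 19.8 ± 7.66 TPM (SD, n = 5 each). For platelets, 1 of 8 listed genes was tested, Itga2b at a log2 fold change of 0.28, and the sums were 2.80 to 4.18 and 3.44 to 10.4 TPM. In these lists too, labelled knockout library 4 had the highest sum. No listed gene of these cells was at 0 in all libraries, and their part in the levels of the 10 genes was not tested.

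Genes of other liver cells overlapped between the groups in their sums. Hepatocyte genes had a median log2 fold change of 0.06 and sums of 51285 to 93596 and 60794 to 93328 TPM, with Alb, serum albumin, at -0.06. Stellate cell genes had a median of 0.16 and sums of 68.0 to 95.2 and 54.9 to 154 TPM, with Dcn, the matrix proteoglycan decorin, at 0.12. Lymphatic markers had a median of -0.46 over 3 tested genes and sums of 10.1 to 24.8 and 7.21 to 17.7 TPM, most of it Prox1, which hepatocytes make too. That median is the value of Reln, which is on the stellate cell list as well. Smooth muscle genes (median -0.39, sums 4.57 to 21.1 and 4.23 to 18.5 TPM, Tagln at 0.15), cholangiocyte genes (0.09, 15.1 to 27.8 and 16.5 to 51.4 TPM, Spp1 at 0.09) and mesothelial genes (0.371 to 1.05 and 0.0541 to 1.82 TPM, with only Gpm6a tested, at -0.38) overlapped between the groups as well. None of the genes in these 6 lists was called.

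Other tested genes were ranked by likeness to the mean of the 10 (standardised log2 CPM). Symbols starting with Gm and a digit or ending in Rik, pseudogenes, genes of the Y chromosome and Xist were left out. Over the 10 libraries, the ranked genes most like that mean were Rapgef3 (Pearson r = 0.971), Elk3 (0.970), Arhgap30 (0.963), Sox18 (0.962), Fgd5 (0.958), Icam2 (0.958), Msn (0.957) and Ppp1r16b (0.957). These correlations describe 10 libraries that share groups and runs. After the group means were taken out they were 0.923 to 0.953. Of the 8, Sox18, an endothelial transcription factor, had the highest log2 fold change, 1.23 (standard error 0.38, adjusted p = 0.33), and none was called. Among the 10 genes themselves, the correlation with their own mean ran from 0.816 for Tek and 0.846 for Erg to 0.981 for Tie1. Each of the 10 is part of that mean, which raises these values, and they include the difference between the groups. The nearest protein coding neighbours of the 10 in the genome, 20 genes of which 9 were tested, gave 0 calls, with 5 pointing higher and a median log2 fold change of 0.06.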

How the data were processed

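Total RNA of whole mouse liver was measured in 10 libraries, 5 per group. Trim Galore 0.6.4 and kallisto 0.4.6 were used with the build GRCm38.p6, per the submitters' processing notes. How transcripts were summed to genes, the annotation release and the use of strand are not given in the sources used here. The authors deposited estimated counts per gene, used for tests, and TPM per gene, used for levels. Of the nonzero counts 38.3% were whole (tolerance 1e-06). All were rounded, which moved no library total by more than 0.00078%.

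GENCODE M21 gave symbols and coordinates for 55144 of 55385 IDs. The other 241 held at most 0.013% of a library's counts. No 2 libraries were identical. Counts were filtered with filterByExpr, scaled by TMM (factors 0.869 to 1.107) and tested over 12872 genes in R 4.3.3 with edgeR 4.0.16 (robust quasi-likelihood fit, group only, all libraries, Benjamini-Hochberg adjustment), with a biological coefficient of variation of 0.272. The test was checked on simulated data. Standard errors were derived from F. DESeq2 1.42.0, limma 3.58.1 on log2(TPM + 1) and log2(TPM + 0.1), other scalings and filters, the run of file numbers, the replicate block and each library left out were alternatives. Added after seeing the data were a transcript length offset and leaving out libraries with Saa1 above 1000 TPM.

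The 10 genes and all lists were chosen with earlier results of these data known. Named by rule are the 10, from each other list the called genes (at most 4) and the most abundant tested one, and the 8 genes most alike among those ranked. Named outside this rule are Acvrl1, Saa1, genes that overlap Egfl7 or Ramp2, and Cav1, S1pr1, Vwf, Plvap, Clec14a and Unc5b. Promoters came from RefSeq, which held 5 of the 10 genes here.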

Additional observations from a re-analysis of the deposited data

Results flagged for a closer look

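Over 64 sets of 5 libraries (each of the 10 genes and each sum or ratio, by group), 5 had a highest or lowest library far from the other 4. Labelled knockout library 4 was the high one in 4 of them. Its summed continuous endothelium genes were at 209 TPM against 112 to 128 TPM in the others, and its platelet genes at 10.4 against 3.44 to 5.08 TPM. Its smooth muscle genes were at 18.5 against 4.23 to 6.18 TPM, and its cholangiocyte genes at 51.4 against 16.5 to 23.5 TPM. The fifth was control library 1, with smooth muscle genes at 21.1 against 4.57 to 7.76 TPM in the other controls. For independent sets of normally distributed values, chance alone gives such a gap in about 1 in 20 sets. The sets here share the same libraries, so that rate is only a rough guide. The sum of the 10 genes in labelled knockout library 4 was 99.4 TPM, the highest of its group, without such a gap.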

How the results depend on the processing

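The number of genes called, 46, was 119 without a filter on low counts, 152 with DESeq2, 5 with the run of file numbers as a covariate, 18 without the third run, 14 with limma on log2(TPM + 1), 19 on log2(TPM + 0.1), 10 on log2(TPM + 1) without a filter, 30 without the libraries with Saa1 above 1000 TPM, and 33 to 83 when 1 library was left out (83 without labelled knockout library 1). The cause was not tested. Higher and lower calls were 24 and 22, against 27 and 20 under scaling by totals, 16 and 24 with the replicate block, and 11 and 19 without the libraries with Saa1 above 1000 TPM. Of the 10 genes, 0 were called, 2 without the filter (log2 fold changes 0.83 for Tie1 and 1.09 for Robo4) and 3 with DESeq2, while the other 21 alternatives called 0. Their median log2 fold change of 0.82 ran from 0.54 (without the libraries with Saa1 above 1000 TPM, 9 higher and 1 lower) to 0.94, and was 0.61 without labelled knockout library 4. Only Tek changed direction, to -0.04 without the libraries with Saa1 above 1000 TPM. The ratio of summed TPM, 1.81, was 1.59 to 1.97. Same-numbered libraries did not pair by the check used (2 of 5 correlations of deviations over 0.1, and 1 library number in 5 best with its own). With the replicate block 40 genes were called, 0 of them among the 10, and 8 of the 10 had an unadjusted p under 0.05. That held for 7 of the 10 with the run of file numbers as a covariate. Without the libraries with Saa1 above 1000 TPM it held for 6. Counts as low as 34 per library for Erg limit precision.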

Other observations

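Adjusted p-values of single genes differed widely over the 23 alternatives. For Tie1 they ran from 0.012 to 0.68 at log2 fold changes of 0.65 to 0.95, and for Robo4 from 0.013 to 0.89 at 0.72 to 1.31. Pecam1 ran from 0.033 to 1.0 at 0.72 to 1.22. Tek did not go below 0.77 under any of them, at log2 fold changes of -0.04 to 0.37.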
